A study of Macaca mulatta with 49 samples.

Results

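The gap between 2 lineages of central memory T cells (TCM) was measured in rhesus macaques that had received an antibody against interleukin 15 (IL-15). The samples were those labelled as anti-IL-15 and post-treatment: CD8 TCM of 6 animals, set against CD4 TCM of the same 6 animals. These 12 samples, on 12 arrays, are part of 48 samples on 49 arrays from 12 animals. Baselines were the CD8 and CD4 TCM of the same 6 animals before treatment, and those of 6 other animals after an IgG1 control antibody. Both lineages were sorted from blood mononuclear cells and gave total RNA, which was amplified and hybridised to Illumina human BeadChips. All animals are labelled by antibody and time point alone. The labels give neither the dose, the time since treatment nor the age, and 1 time label of the IgG1 samples is misspelt and was read as post-treatment.

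Central memory T cells circulate through blood and lymph nodes and renew themselves as a reserve of memory. IL-15 is presented by neighbouring cells to a receptor made of the IL-2 receptor beta chain and the common gamma chain, which signal through Janus kinases and STAT5. Natural killer (NK) cells and memory cells of the CD8 lineage are known for their dependence on IL-15, while CD4 memory T cells also draw on IL-7. CD8 cells carry a cytotoxic programme of granule proteases and perforin, and CD4 cells a helper programme.

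Levels are log2 normalised intensities, and the gap is CD8 minus CD4 within an animal. Standard errors (SE) and p-values are those of limma with the animal as a block, with Benjamini-Hochberg adjustment across the 8390 tested genes, and a gene was called at an adjusted p below 0.05. Gene symbols are the human symbols of the array annotation. The array holds human sequence, and a probe that is dim with macaque RNA does not show a silent gene, and levels are compared between samples and not between genes.

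The labels of the lineages were checked against CD8A, the CD8 alpha chain. It ran from 12.58 through a median of 13.08 to 13.28 in CD8 samples, and from 4.66 through 5.80 to 6.53 in CD4 samples. The CD4 probe could not check the other side, since it was detected on 0 of 6 CD8 arrays and 1 of 6 CD4 arrays. Both lineages had CD3D, a T cell receptor chain, at medians of 13.23 in CD8 and 13.19 in CD4, and CCR7, the lymph node homing receptor that marks TCM, at 7.97 in CD8 and 7.58 in CD4. The 12 arrays detected 24.4% to 28.4% of 47230 probes in CD8 samples and 27.2% to 29.4% in CD4 samples. CD8 samples came from 23000 to 95000 sorted cells and CD4 samples from 197000 to 534000, with no overlap, so lineage and cell number cannot be told apart. RNA input was set to 50 ng in all samples. The CD8 arrays of animals 4 and 6 and the CD4 array of animal 3 stood apart, with median correlations to their groups of 0.957, 0.959 and 0.956 across genes, against 0.966 to 0.968 for the other CD8 arrays and 0.968 or more for the other CD4 arrays. In the CD8 samples of animals 3, 5 and 6, markers of monocytes and dendritic cells were raised, as given below. In bulk RNA, fewer cells of a type and less RNA per cell cannot be told apart.

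After anti-IL-15, 1617 of 8390 genes (19.3%) differed between the lineages. CD8 was higher for 646 (7.7%) and lower for 971 (11.6%). A gap of at least 1, a 2-fold difference, was found for 111 genes higher in CD8 (1.32%) and for 182 lower (2.17%). Cytotoxic granule genes led the first group and the transcription factor MAF, the protease gene CTSL and the vesicle transport gene RAB11FIP5 were among the leaders of the second. The median gap of all genes was -0.02. Background correction sets the size of many gaps: of the 86 called genes named here, 46 had a gap over 1.5 times smaller without it, and 78 were still called. At an unadjusted p below 0.05 there were 2833 genes (33.8%), and 6 of 6 animals were higher in CD8 for 768 genes (9.15%) and lower for 1077 (12.8%). Single animals moved the number of calls: it was 800 without animal 1, 765 without animal 2 and 861 without animal 5, against 1057 without animals 3 and 4 and 918 without animals 5 and 6. Detection on CD8 arrays alone was found for 75 of the tested genes, and on CD4 arrays alone for 206.

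**Figure D1:**
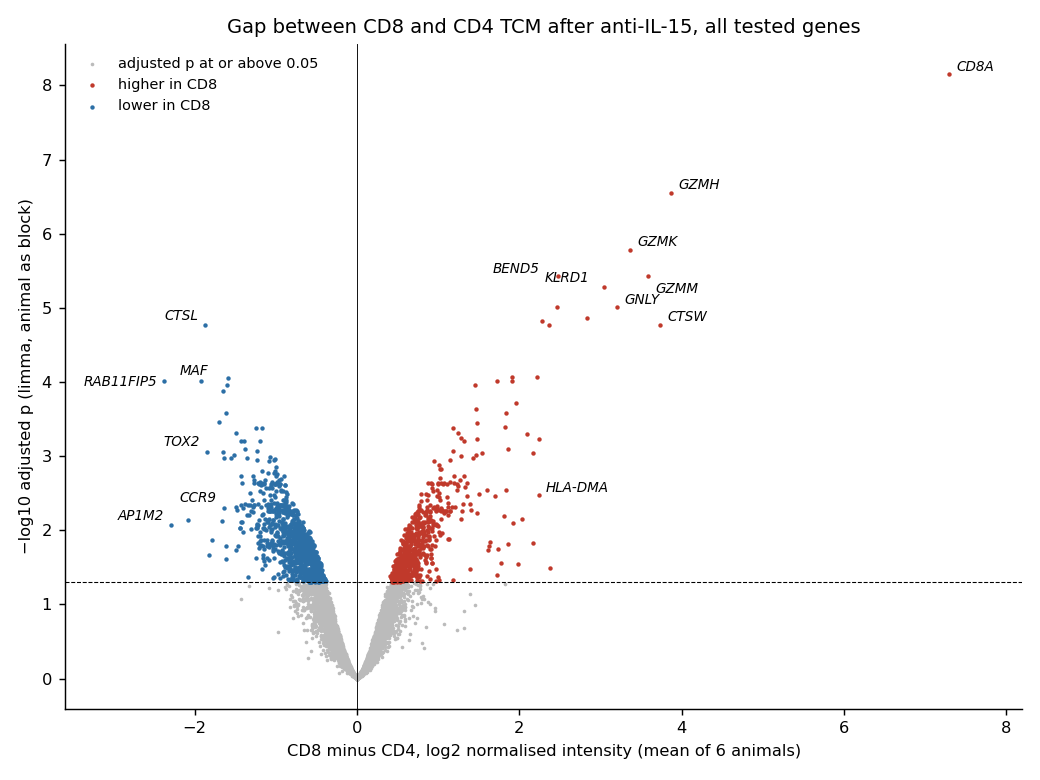
Each point is 1 of 8390 genes; the x axis is the mean gap of 6 animals (CD8 minus CD4, log2 normalised intensity) and the y axis −log10 of the adjusted p from limma. Red points (646) were higher in CD8 and blue points (971) lower, and the CD8-high side reaches farther, to 7.30 for CD8A against -2.37 for RAB11FIP5.

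All 4 tested genes of the CD8 identity list were higher in CD8 TCM, against a background of 7.7% of genes. The gap of CD8A was 7.30 (SE 0.21, adjusted p = 7.05e-09), a 157-fold difference, and no sample of one lineage came near the other. Without background correction the gap was 5.97, still called. The other CD8A probes, not tested, had mean gaps of 7.26 and 3.18, so the fold depends on the probe and the correction. CD8B, the beta chain, ran from 5.07 through 5.74 to 6.92 in CD8 and from 4.34 through 4.41 to 4.97 in CD4, and no CD4 array detected it. It was at least 1.80-fold higher in CD8 (adjusted p = 0.00439). EOMES, a transcription factor of memory and cytotoxic CD8 cells, ran from 6.97 through 8.12 to 8.67 in CD8 and from 5.60 through 6.13 to 6.74 in CD4. Its gap was 1.84 (SE 0.28, adjusted p = 0.00284), and animal 3 had the smallest, 0.23. RUNX3, which silences CD4 in CD8 cells, was higher by 0.76 (SE 0.16, adjusted p = 0.0107). CRTAM and KLRK1, the other 2 members, were detected on too few arrays to be tested.

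Of the 10 tested genes of cytotoxic granules and effector molecules, 9 were higher in CD8 and 0 lower, against 7.7% and 11.6% of all genes. Their median gap was 3.02, against -0.02 for all genes. Without background correction this median was 1.98 and 9 of the 10 were called. GZMB, FASLG and IFNG were detected on 0 of the 12 arrays.

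Granzymes are serine proteases released into target cells. GZMH ran from 8.40 through 8.68 to 10.23 in CD8 and from 4.51 through 4.86 to 5.91 in CD4. The lineages did not overlap, as for 4.91% of all genes, and the gap was 3.87 (SE 0.16, adjusted p = 2.81e-07). GZMM ran from 9.32 through 9.64 to 10.14 in CD8 and from 5.55 through 5.99 to 6.92 in CD4, a gap of 3.58 (SE 0.21, adjusted p = 3.75e-06). GZMK spread more within each lineage, from 8.79 through 10.73 to 11.15 in CD8 and from 5.43 through 6.94 to 8.11 in CD4. Animals 3 and 6 were lowest for GZMK in both lineages, so its gap was steadier than its level, at 2.76 to 3.91 in the 6 animals (mean 3.37, SE 0.17, adjusted p = 1.63e-06). Granzyme A, GZMA, named after its values were seen, had a gap of 2.10 (SE 0.24, adjusted p = 0.000497). GZMH was detected on 3 of 6 CD4 arrays. Without background correction the gap was 2.37 for GZMH and 1.06 for GZMA, both still called.

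The other granule genes had gaps of the same order. GNLY, which encodes the pore-forming granulysin in humans, ran from 9.20 through 10.13 to 10.44 in CD8 and from 6.05 through 6.87 to 7.46 in CD4 (gap 3.20, SE 0.21, adjusted p = 9.78e-06). PRF1, perforin, ran from 6.89 through 7.24 to 7.56 in CD8 and from 4.57 through 4.81 to 5.08 in CD4, where 1 of 6 arrays detected it (gap 2.46, SE 0.16, adjusted p = 9.78e-06). CTSW, a cysteine protease of cytotoxic lymphocytes, had a gap of 3.74 (SE 0.27, adjusted p = 1.68e-05). Its CD4 levels lay between 4.33 and 4.68 in 5 animals and at 6.47 in animal 3, whose CD4 array stood apart. CST7, cystatin F, which restrains granule cathepsins, was higher by 2.84 (SE 0.20, adjusted p = 1.36e-05). NKG7, a granule membrane protein named after its values were seen, was higher by 1.91 (SE 0.17, adjusted p = 9.81e-05). CD4 samples measured CTSW, PRF1 and NKG7 on 1 of 6 arrays each, so the size of these gaps rests on levels near background. Without background correction the gap was 2.16 for CTSW, 1.15 for PRF1, 0.83 for NKG7 and 1.81 for CST7, each still called.

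**Figure D2:**
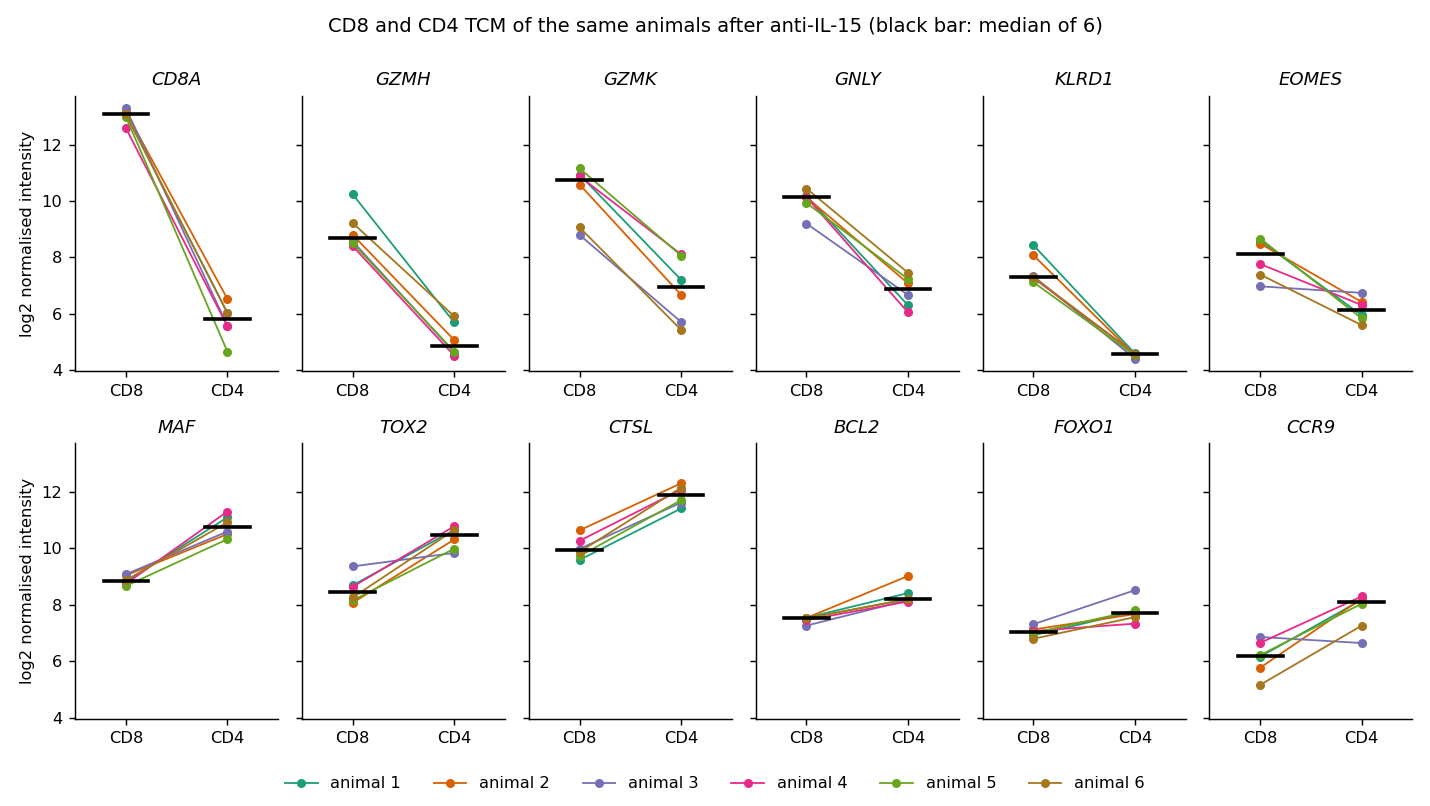
Log2 normalised intensity of 12 genes in CD8 TCM (left) and CD4 TCM (right) after anti-IL-15; a line joins the samples of 1 animal, a colour marks the animal and black bars are medians of 6. The upper row falls from CD8 to CD4 in 6 of 6 animals for each gene, least for EOMES in animal 3, and in the lower row CCR9 of animal 3 is the exception to a rise.

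Receptors shared with NK cells also separated the lineages. Of 7 tested NK receptors and adaptors, 4 were higher in CD8, 0 lower and 3 not called, with a median gap of 1.07. Of all genes, 7.7% were higher and 11.6% lower. KLRD1, the CD94 chain that pairs with NKG2 receptors, ran from 7.12 through 7.32 to 8.43 in CD8. In CD4 it lay between 4.41 and 4.59 and was detected on 0 of 6 arrays, so it was at least 5.82-fold higher in CD8 (adjusted p = 5.22e-06). KLRG1, an inhibitory receptor of antigen-experienced cells, was at least 3.61-fold higher, with levels from 5.39 through 6.97 to 7.82 in CD8 and 0 of 6 CD4 arrays detecting it. HCST, the DAP10 adaptor of NKG2D, was higher by 1.07 (SE 0.20, adjusted p = 0.00588) and NCR3, the receptor NKp30, by 0.94 (SE 0.18, adjusted p = 0.00753). Of 9 NK cell markers, NCR1, KIR3DL1 and SH2D1B were detected on 0 of 12 arrays, KLRF1 on 3 CD8 and 0 CD4 arrays and NCAM1 on 3 CD8 and 1 CD4 arrays. TYROBP, the DAP12 adaptor that monocytes also express, was detected on 5 CD8 and 3 CD4 arrays and was not called (gap 1.40, SE 0.50, adjusted p = 0.0733). The summed intensity of the NK markers was 507 to 669 in the CD8 samples of animals 1 to 4, 859 in that of animal 5 and 1190 in that of animal 6, against 425 to 619 in CD4 samples, and its part in these gaps was not tested. FCGR3A, the CD16 receptor, had medians of 8.34 in CD8 and 8.57 in CD4 and a gap of -0.01 (SE 0.17).

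Several of the strongest CD8-high genes lie outside these lists. BEND5, which encodes a BEN domain protein, ran from 7.77 through 8.13 to 8.53 in CD8 and from 5.30 through 5.37 to 6.29 in CD4, without overlap (gap 2.48, SE 0.14, adjusted p = 3.75e-06). LAG3, an inhibitory receptor for HLA class II, ran from 7.41 through 7.98 to 8.37 in CD8 and from 5.37 through 5.54 to 6.08 in CD4 (gap 2.28, SE 0.16, adjusted p = 1.49e-05). TENT5A, a non-canonical poly(A) polymerase, was higher by 2.25 (SE 0.26) and PLAC8 by 2.21 (SE 0.19), each in 6 of 6 animals. CD79B, known as a chain of the B cell receptor, ran from 7.47 through 8.15 to 8.58 in CD8 and from 5.41 through 5.78 to 6.01 in CD4 (gap 2.36, SE 0.17, adjusted p = 1.71e-05). Its partner CD79A was higher by 0.55 (SE 0.14, adjusted p = 0.0239). The B cell marker MS4A1, which encodes CD20, had medians of 5.20 in CD8 and 5.26 in CD4, and PAX5 and BLK were detected on 0 of 12 arrays.

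On the CD4 side, the identity list rests on 3 tested genes, of which 2 were lower in CD8 (against 11.6% of all genes) and 1 was not called. MAF, a transcription factor of helper subsets, ran from 8.67 through 8.85 to 9.08 in CD8 and from 10.33 through 10.76 to 11.31 in CD4. The lineages did not overlap, and CD8 was lower by 1.92 on the log2 scale (gap -1.92, SE 0.17, adjusted p = 9.62e-05). CTLA4, the inhibitory counterpart of CD28, ran from 4.51 through 4.81 to 5.36 in CD8 and from 4.78 through 5.95 to 7.19 in CD4 (gap -1.10, SE 0.25, adjusted p = 0.0149). ZBTB7B, known as ThPOK and a keeper of the CD4 fate, had medians of 5.44 in CD8 and 5.29 in CD4 and was not called (gap 0.15, SE 0.13). CTLA4 did not pass without animal 1, without animal 2 or without animals 3 and 4 together.

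Follicular helper genes gave 3 of 7 lower in CD8 and 0 higher, where 11.6% of all genes were lower and 7.7% higher. TOX2, a transcription factor of follicular helper cells, ran from 8.07 through 8.45 to 9.36 in CD8 and from 9.84 through 10.48 to 10.79 in CD4. Its gap was -1.84 (SE 0.23, adjusted p = 0.000867), from -2.39 to -1.83 in 5 animals and -0.48 in animal 3. A second TOX2 probe, weaker and not tested, had a mean gap of -0.27. CXCR5, the chemokine receptor that leads cells to B cell follicles, was detected on 0 of 6 CD8 arrays and all 6 CD4 arrays, and was at least 1.61-fold lower in CD8 (adjusted p = 0.00168). CD200, a surface glycoprotein of follicular helper cells, was lower by 0.77 on the log2 scale (gap -0.77, SE 0.19, adjusted p = 0.0191). ICOS, their costimulatory receptor, was not called, with medians of 9.34 in CD8 and 9.54 in CD4 (gap -0.15, SE 0.16). Of 8 helper subset genes, RORA alone was called, lower in CD8 (gap -0.75, SE 0.19, adjusted p = 0.0199). Of 4 tested regulatory T cell genes, CTLA4 was called, on a probe detected on 1 of 6 CD8 and 5 of 6 CD4 arrays, and TNFRSF18 was detected on 0 of these 12 arrays, as were 14 of the 8390 tested genes.

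Chemokine receptors of gut and inflamed tissue were among the CD8-low genes. CCR9, which directs T cells to the small intestine, ran from 5.16 through 6.19 to 6.86 in CD8 and from 6.65 through 8.11 to 8.30 in CD4. The gap lay between -2.45 and -1.65 in 5 animals and was 0.21 in animal 3 (mean -1.64, SE 0.29, adjusted p = 0.00494). CCR2, a receptor for CCL2, had a gap of -1.02 (SE 0.31, adjusted p = 0.0425), and 4 of 6 animals were lower; it passed in 2 of the 6 fits that left out an animal. The other CCR2 probes, not tested, had mean gaps of 0.12 and -1.34, so the CCR2 probes disagree. With CXCR5 added to CCR9 and CCR2, 3 of 8 tested chemokine genes were lower and 0 higher. Of all genes, 11.6% were lower and 7.7% higher. CCL5, a chemokine of memory CD8 cells, was not called on its brightest probe, with a gap of 0.12 (SE 0.14). Its other probe, detected on 6 of 6 CD8 and 2 of 6 CD4 arrays, had a mean gap of 2.50 (SD 0.55, n = 6), so the 2 probes disagree.

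The largest CD8-low gaps came from genes of varied function. RAB11FIP5, an effector of recycling endosomes, ran from 4.48 through 4.74 to 6.96 in CD8 and from 6.53 through 7.62 to 8.73 in CD4 (gap -2.37, SE 0.21, adjusted p = 9.62e-05). Within each animal CD8 was lower, although the ranges of the lineages overlap. RAB11FIP5 was detected on 2 of 6 CD8 arrays, so the size of its gap rests on levels near background. Without background correction its gap was -1.22, still called. CTSL, a lysosomal cysteine protease, ran from 9.59 through 9.93 to 10.64 in CD8 and from 11.42 through 11.90 to 12.31 in CD4 (gap -1.87, SE 0.14, adjusted p = 1.71e-05). AP1M2, a clathrin adaptor subunit, had a gap of -2.29 with a wide spread (SE 0.46), and UBXN7, a cofactor of the p97 ATPase, one of -1.79 (SE 0.40). AP1M2 was detected on 4 of 6 CD8 arrays. Without background correction the gap was -1.31 for AP1M2, -1.13 for UBXN7 and -1.79 for CTSL, each still called.

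Lower in CD8 in 6 of 6 animals were also NCOA7, a nuclear receptor coactivator (gap -1.70, SE 0.18), DPYSL2, a cytoskeletal protein (-1.65, SE 0.16), and AXIN2, a feedback inhibitor of Wnt signalling (-1.64, SE 0.20). ASPHD2 had a gap of -1.67 (SE 0.32) and CR1, a complement receptor, one of -1.64 (SE 0.21). ASPHD2 was detected on 3 of 6 CD8 arrays. Without background correction the gap was -0.78 for ASPHD2 and -0.94 for CR1, both still called. ARID5B, a DNA-binding cofactor, had a gap of -1.60 (SE 0.15), and animal 2 the largest, -2.18. EYA4, a transcriptional cofactor, was detected on 0 of 6 CD8 arrays and all 6 CD4 arrays and was at least 1.94-fold lower in CD8 (adjusted p = 0.000262). The probes annotated to the MIR574 locus and to the ribosomal RNA gene RNA28SN5 had gaps of -2.08 (SE 0.40) and -1.62 (SE 0.38).

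Regulators of effector differentiation were split. Of 10 tested, 4 were higher in CD8 and 2 lower, where 7.7% of all genes were higher and 11.6% lower. ID2, which sustains effector cells, was higher by 0.76 (SE 0.13, adjusted p = 0.00455), and ZNF683, known as Hobit, by 0.98 (SE 0.22, adjusted p = 0.0135), beside EOMES and RUNX3. PRDM1, which encodes Blimp-1, ran from 6.07 through 6.61 to 7.20 in CD8 and from 6.71 through 7.47 to 8.48 in CD4 (gap -0.92, SE 0.20, adjusted p = 0.0121). BHLHE40, a regulator of cytokine production, was lower by 0.76 on the log2 scale (gap -0.76, SE 0.16, adjusted p = 0.0105). TBX21, the T-bet gene, was not called (gap 0.42, SE 0.19, adjusted p = 0.14).

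Of 10 tested genes of memory, quiescence and lymph node homing, 2 were lower in CD8 and 0 higher, with a median gap of -0.33. Of all genes, 11.6% were lower and 7.7% higher. FOXO1, a transcription factor of quiescence and homing, ran from 6.80 through 7.04 to 7.31 in CD8 and from 7.33 through 7.72 to 8.52 in CD4, without overlap (gap -0.74, SE 0.15, adjusted p = 0.00863). LEF1, a Wnt pathway factor of naive and memory T cells, had a gap of -0.46 (SE 0.14, adjusted p = 0.0461), while its second probe had a mean gap of 0.00, and it passed in 1 of the 6 fits that left out an animal. IL7R, the IL-7 receptor alpha chain, had medians of 11.35 in CD8 and 11.76 in CD4 and was not called (gap -0.38, SE 0.14, adjusted p = 0.0805).

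The receptor axis that the antibody targets gave calls that depended on the processing and on the animals fitted. Of 11 tested genes of the IL-15 and common gamma chain list, 0 passed the threshold in either direction, where 19.3% of all genes passed, and their median gap was 0.02. Without background correction 1 was higher, IL4R (adjusted p = 0.0185), and 1 lower, IL7R (adjusted p = 0.0259), as also with normexp, with the authors' deposited values and without animal 4. Over 17 alternative settings IL4R passed in 8, IL7R in 6 and STAT5B and STAT6 in 1 each. A second IL7R probe, not tested, had a mean gap of 0.04. After IgG1 the same list had 1 higher and 3 lower, and before treatment 1 higher and 0 lower. IL2RB, the chain that binds IL-15, ran from 5.67 through 6.53 to 6.85 in CD8 and from 5.98 through 6.12 to 6.61 in CD4. The ranges overlap, 4 of 6 animals were higher in CD8, and the gap was 0.22 (SE 0.22, 95% interval -0.26 to 0.71). IL2RG, the common gamma chain, ran from 5.52 through 5.66 to 6.06 in CD8 and from 5.34 through 5.53 to 6.45 in CD4 (gap 0.00, SE 0.16). JAK1 had a gap of 0.02 (SE 0.16), STAT5A of 0.12 (SE 0.16) and STAT5B of -0.42 (SE 0.17, adjusted p = 0.103). IL2RA, the IL-2 receptor alpha chain, had a gap of 0.14 (SE 0.14), IL21R, the IL-21 receptor, of 0.04 (SE 0.19), and the signal transducers STAT3 and STAT6 of -0.10 (SE 0.20) and -0.36 (SE 0.17). IL4R had a gap of 0.41 (SE 0.14, adjusted p = 0.0595) and was higher in CD8 in 6 of 6 animals. IL15, IL15RA, JAK3 and IL9R were detected on too few arrays to be tested.

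Of 15 tested STAT5 targets and genes of cytokine feedback, 5 were lower in CD8 and 1 was higher, with a median gap of -0.30. Of all genes, 11.6% were lower and 7.7% higher. BCL2, the survival factor, ran from 7.26 through 7.52 to 7.54 in CD8 and from 8.12 through 8.21 to 9.02 in CD4. The lineages did not overlap, and the gap was -0.88 (SE 0.15, adjusted p = 0.00433), with animal 2 at -1.48. CCND2, cyclin D2, was lower by 0.61 on the log2 scale (gap -0.61, SE 0.13, adjusted p = 0.0122) and CCND3, cyclin D3, higher by 0.48 (SE 0.14, adjusted p = 0.0347). CISH and SOCS3, inhibitors of cytokine receptor signalling, had gaps of -0.54 (SE 0.16, adjusted p = 0.0378) and -0.66 (SE 0.20, adjusted p = 0.0429), each lower in 5 of 6 animals. DUSP5, a phosphatase of ERK kinases, had a gap of -0.50 (SE 0.14, adjusted p = 0.0288). With each animal left out in turn, CISH and DUSP5 passed in 1 of 6 fits and SOCS3 and CCND3 in 2 of 6. Without animals 5 and 6, 1 of the 15 was lower and 0 higher. In that fit the gap was -0.98 for BCL2, -0.63 for CCND2 and 0.44 for CCND3. It was -0.54 for CISH, -0.43 for SOCS3 and -0.47 for DUSP5.

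**Figure D3:**
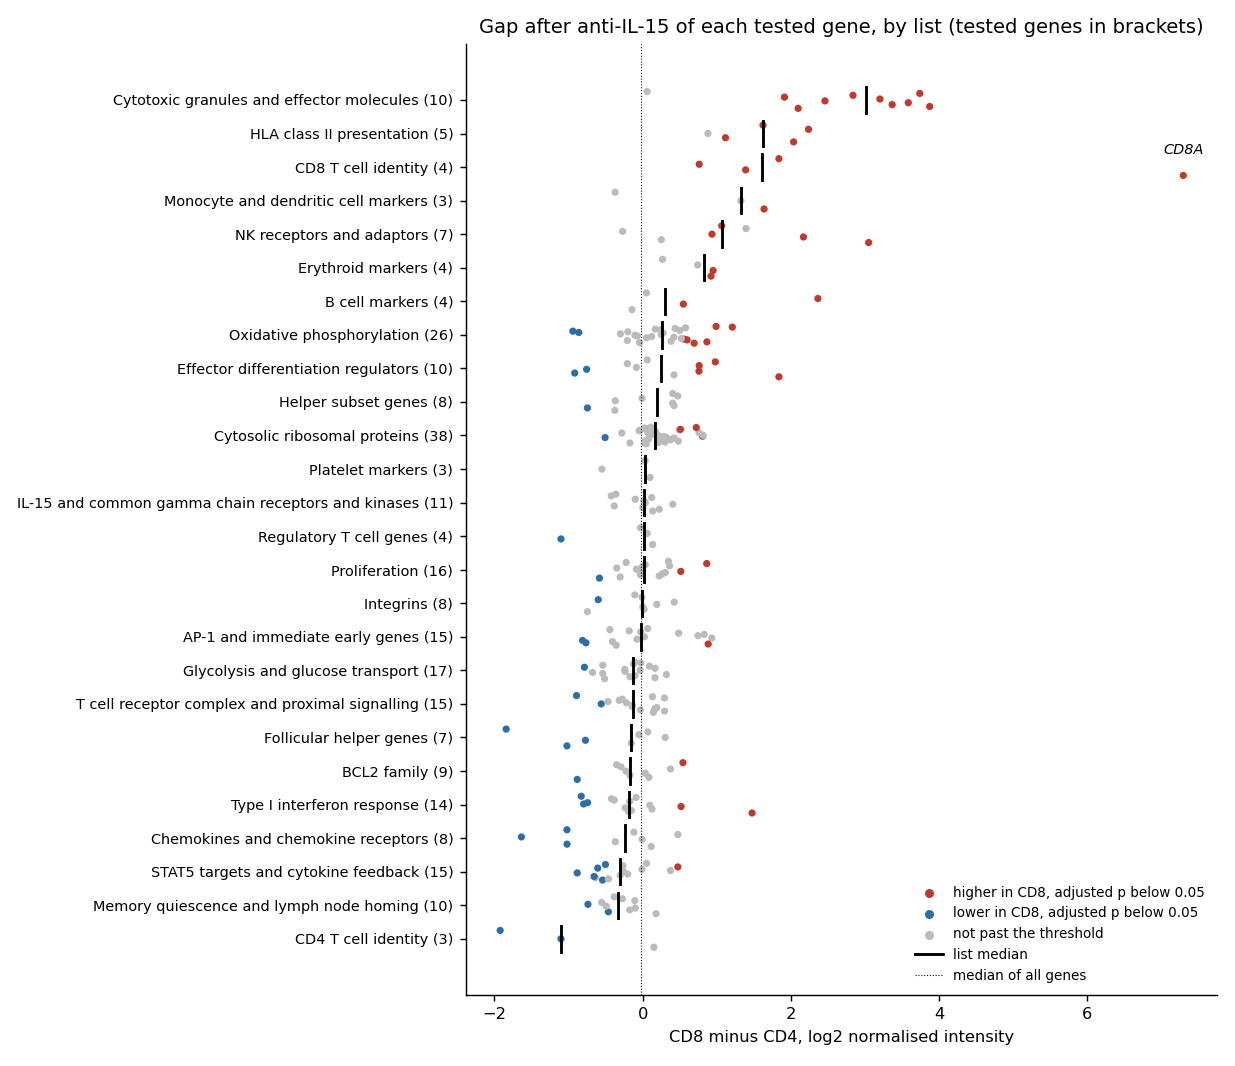
The x axis is the gap after anti-IL-15 (CD8 minus CD4, log2 normalised intensity), each point is a tested gene of a list, red and blue points passed the adjusted threshold, and black bars are list medians beside the dotted median of all genes (-0.02). Medians run from 3.02 for cytotoxic genes to -1.10 for the CD4 identity list, and the IL-15 receptor list sits at 0.02.

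Of 14 tested interferon response genes, 2 were higher in CD8 and 3 lower, where 7.7% of all genes were higher and 11.6% lower. IFI27, an interferon-induced mitochondrial protein, ran from 8.65 through 10.33 to 10.85 in CD8 and from 6.89 through 8.53 to 10.85 in CD4. The gap lay between 1.35 and 2.16 in 5 animals and was -0.24 in animal 3 (mean 1.48, SE 0.27, adjusted p = 0.00588). ISG15, a ubiquitin-like protein, was higher by 0.52 (SE 0.15, adjusted p = 0.0333). OAS1, a sensor of double-stranded RNA, had a gap of -0.74 (SE 0.18, adjusted p = 0.0161), EIF2AK2, the kinase PKR, of -0.83 (SE 0.24) and MX1, an antiviral GTPase, of -0.80 (SE 0.25). With each animal left out in turn, ISG15 passed in 1 of 6 fits, EIF2AK2 and MX1 in 2 of 6 and OAS1 in 4 of 6.

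T cell receptor and adhesion genes were lower in CD8 at a share near that of all genes, 11.6%. None of them was called higher, against 7.7% of all genes. Of 15 genes of the receptor complex and its signalling, 2 were lower in CD8: TRAT1, an adaptor that stabilises the receptor (gap -0.89, SE 0.19, adjusted p = 0.0113), and FYN, a Src family kinase (-0.56, SE 0.14, adjusted p = 0.0218). Without animals 5 and 6 neither passed, at gaps of -0.59 for TRAT1 and -0.62 for FYN. That fit called 918 of all genes, against 1617 with every animal. Of 8 integrins, ITGB1, the beta 1 chain, was lower (gap -0.60, SE 0.14, adjusted p = 0.0172), while ITGAL and ITGB7 were not called.

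Of 26 oxidative phosphorylation genes, 6 were higher in CD8 and 2 lower, with a median gap of 0.26, where 7.7% of all genes were higher and 11.6% lower. COX7B and COX7C, small subunits of cytochrome c oxidase, had gaps of 1.21 (SE 0.21, adjusted p = 0.00484) and 0.99 (SE 0.15, adjusted p = 0.00284), while UQCRC2, a core subunit of complex III, had one of -0.94 (SE 0.22, adjusted p = 0.0143). Of 38 ribosomal protein genes, 3 were higher and 1 lower, with a median gap of 0.17 and RPL30 at 0.81 (SE 0.17). Of 17 glycolysis genes, GAPDH alone was called, lower in CD8 (gap -0.79, SE 0.18, adjusted p = 0.0137), with animal 4 at 0.16.

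Proliferation, immediate early and death genes had calls both ways, where 7.7% of all genes were higher in CD8 and 11.6% lower. Of 16 proliferation genes, CDC20, an activator of the anaphase-promoting complex, and TYMS, thymidylate synthase, were higher (gaps 0.86, SE 0.15, and 0.51, SE 0.15) and TOP2A, topoisomerase II alpha, lower (gap -0.58, SE 0.14). Of 15 AP-1 and immediate early genes, FOSB was higher (gap 0.88, SE 0.20) and JUNB (-0.81, SE 0.16) and FOSL2 (-0.76, SE 0.21) lower. Of 9 BCL2 family genes, BBC3, the death inducer PUMA, was higher (gap 0.54, SE 0.15, adjusted p = 0.0294) and BCL2 lower, as given above. With each animal left out in turn, TYMS passed in 1 of 6 fits, BBC3 and FOSL2 in 2 of 6, TOP2A in 4 of 6 and FOSB in 5 of 6. None of the 15 AP-1 genes passed without animals 5 and 6, where the gap was 0.64 for FOSB, -0.75 for JUNB and -0.86 for FOSL2.

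HLA class II genes, which present antigen to CD4 cells, were higher in CD8 TCM for 4 of 5 tested, against 7.7% of all genes. Their median gap was 1.62, or 0.89 without background correction, again with 4 called. HLA-DRA ran from 7.57 through 8.94 to 13.09 in CD8 and from 6.66 through 7.78 to 9.14 in CD4 (gap 2.04, SE 0.39, adjusted p = 0.00697). Its gap was 3.25 in animal 5 and 3.95 in animal 6, against 0.78 to 2.32 in the other 4. A second HLA-DRA probe, detected on all 12 arrays, had a mean gap of 0.88 (SD 1.33, n = 6) and was higher in 4 of 6 animals. HLA-DMA, a chaperone of peptide loading, ran from 6.45 through 7.44 to 10.69 in CD8 and from 5.10 through 5.83 to 7.08 in CD4 (gap 2.24, SE 0.36, adjusted p = 0.00338). HLA-DMB had a gap of 1.62 (SE 0.39, adjusted p = 0.0164) and HLA-DRB1 of 1.12 (SE 0.25, adjusted p = 0.0133). Macaque class II genes are polymorphic and similar to each other, so signal on a human probe may be shared between them.

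The same CD8 samples held monocyte and dendritic cell markers. Of the 13 markers, 9 were detected on at least 1 CD8 array and 5 on at least 1 CD4 array, counting the brightest probe of each. S100A8, S100A12 and MS4A7 were detected on 0 of 12 by any probe, and CLEC10A on 1 CD4 array by another probe. Their summed normalised intensity in CD8 samples was 387, 459 and 477 in animals 1, 2 and 4, 1167 in animal 3, 3034 in animal 5 and 6091 in animal 6. In the CD4 samples it ran from 402 to 579. CD14, the monocyte receptor for lipopolysaccharide, was called (gap 1.64, SE 0.38, adjusted p = 0.0143), with 3.19 in animal 5 and 3.24 in animal 6. LYZ, lysozyme, was not (gap 1.33, SE 0.70), at 4.00 and 4.28 in those animals against -1.08 in animal 1. Without animals 5 and 6 the class II list had 2 of 5 genes called and a median gap of 0.84, and without animals 3, 5 and 6 it had 2 of 5 and 0.75. HLA-DMA and HLA-DRA were the 2 that passed in both cases. The part of these markers in the class II gap was not tested. The cytotoxic list had 9 of 10 genes called without animals 3, 5 and 6, with a median of 3.30.

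**Figure D4:**
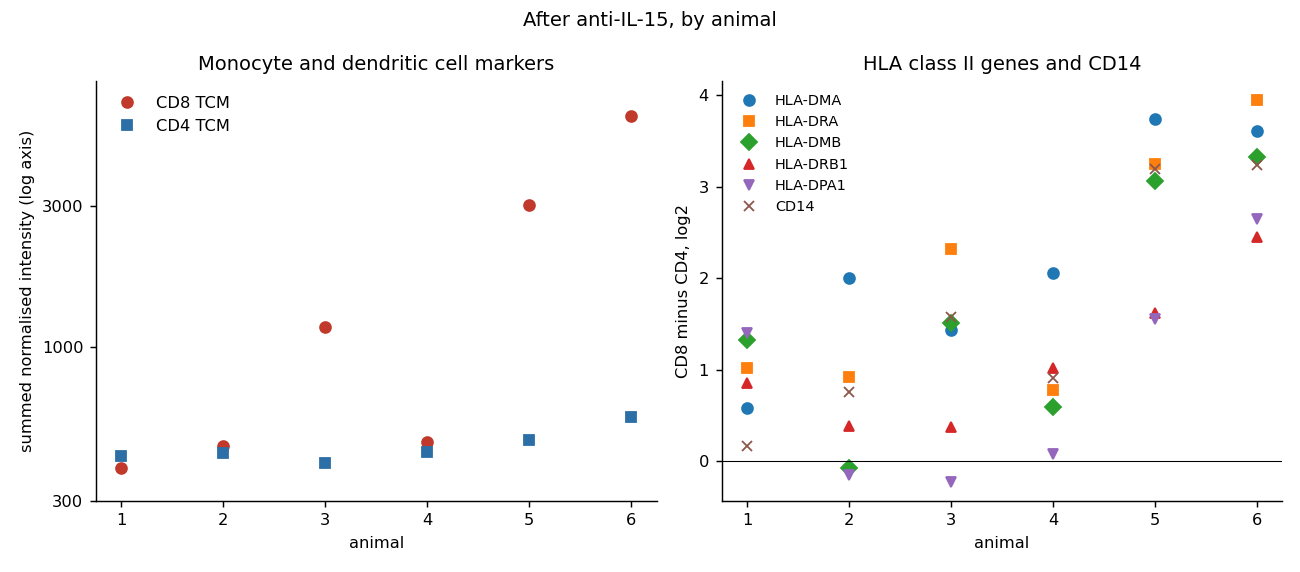
Left, summed normalised intensity of 13 monocyte and dendritic cell markers after anti-IL-15 (log axis) by animal in CD8 (circles) and CD4 TCM (squares); right, the gap of 5 HLA class II genes and CD14 in the same animals. The CD8 samples of animals 3, 5 and 6 stand at 1167, 3034 and 6091 on the left, and the gaps of animals 5 and 6 are the largest on the right for each gene.

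Red cell transcripts were present in both lineages. The summed intensity of 7 erythroid markers ran from 1945 through 5151 to 24203 in CD8 and from 564 through 3285 to 23717 in CD4, highest in animal 5 in both. HBA2, an alpha globin, had a gap of 0.95 (SE 0.21, adjusted p = 0.0119) and HBB, beta globin, one of 0.74 (SE 0.25, adjusted p = 0.063). Of 3 tested platelet markers, 0 were called. The innate-like T cell factor ZBTB16 was higher in CD8 (gap 0.88, SE 0.20, adjusted p = 0.0132). The part of these cells in the gaps was not tested.

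The gap before treatment in the same animals and the gap after IgG1 in other animals serve as baselines. Before treatment 1172 genes (14%) differed, 433 higher in CD8 (5.16%) and 739 lower (8.81%), with 84 (1%) and 121 (1.44%) at a gap of at least 1. At an unadjusted p below 0.05 it was 2467 genes (29.4%). After IgG1 it was 3102 (37%), 1227 higher (14.6%) and 1875 lower (22.3%), and 3859 (46%) at an unadjusted p below 0.05. The typical SE of a gap was 0.16 after anti-IL-15, 0.17 before treatment and 0.14 after IgG1. Of the 1617 genes called after anti-IL-15, 832 were called in the same direction before treatment, which is 51.5% of the 1617 and 71% of the 1172, and 0 in the opposite one. With the IgG1 animals 1361 were shared, 84.2% of the 1617 and 43.9% of the 3102, and 1 was opposite.

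Genes were also picked by their gap in the IgG1 animals alone. Of 123 genes (1.47%) higher in CD8 by at least 1 after IgG1, 123 were higher on average after anti-IL-15. After anti-IL-15, 106 (86.2%) were called higher, against 7.7% of all genes. The median gap of the 123 was 1.05 after anti-IL-15 and 1.24 after IgG1, against -0.02 for all genes in both. Of 272 genes (3.24%) lower by at least 1, 271 were lower and 225 (82.7%) were called lower, against 11.6% of all genes. The median gap of the 272 was -0.95 after anti-IL-15 and -1.16 after IgG1. By animal after anti-IL-15, the medians ran from 0.83 to 1.55 for the first set and from -1.43 to -0.42 for the second. Animals 3 and 6 had the smallest gaps of the second set, at -0.52 and -0.42. The picking rule itself favours large gaps in the IgG1 animals, so the lower medians after anti-IL-15 are not a comparison of the antibodies.

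Whether the gap changed with the antibody was tested for each gene. The change from before to after anti-IL-15 passed for 0 of 8390 genes in limma (lowest adjusted p = 0.647), with 350 (4.17%) at an unadjusted p below 0.05. The difference between the gap after anti-IL-15 and the gap after IgG1 also passed for 0, with 514 (6.13%) at an unadjusted p below 0.05 and a lowest adjusted p of 0.149. When genes were changed by known amounts in simulated libraries, 56.7% of changes of 1 and 13.4% of changes of 0.5 in the gap were recovered, so changes of that size may have been missed.

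The lowest p-values of the change were in CXCL8, GZMH, KIAA0586, CD200R1 and MRRF. The gap of GZMH was 3.87 after anti-IL-15 and 2.41 before it, and 6 of 6 animals had the larger gap afterwards, as for 1.14% of all genes (change 1.46, 95% interval 0.81 to 2.12, unadjusted p = 0.000154, adjusted p = 0.647). In the IgG1 animals GZMH changed by 0.40 (SE 0.31). CXCL8, the neutrophil chemokine IL-8, had a gap of 1.39 after anti-IL-15 and -0.08 before (adjusted p of the change 0.647), and 3.05 and 3.22 in animals 5 and 6, which carry the monocyte markers. Of the 10 cytotoxic genes, 9 had a larger gap after anti-IL-15 than before, with a median change of 0.34, and 0 passed. Of all genes 51.1% had a larger gap and the median change was 0.00. The list's median gap was 3.02 after anti-IL-15 and 2.84 after IgG1, and its median difference between the antibodies was 0.11.

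Against IgG1, GET4, a factor that delivers tail-anchored proteins to the endoplasmic reticulum, came closest. Its gap ran from 0.30 to 1.49 in the 6 animals after anti-IL-15 and from -0.29 to -0.03 in the 6 after IgG1 (difference 1.12, SE 0.19, adjusted p = 0.149). GET4 was picked by the lowest p of this same test, so the separation of these ranges follows from the picking and adds no support. Before treatment the anti-IL-15 animals already had a gap of 0.55 (SE 0.24). A second, weaker GET4 probe had a mean gap of -0.64 after anti-IL-15. CCDC71, IL17D, VPS13B and CTNNB1 followed, with differences of -0.80, -0.98, 0.87 and 0.65 and adjusted p-values of 0.594 for the first and 0.626 for the other 3. Of the 11 genes of the IL-15 list 0 passed this test, with a median difference of -0.01.

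Several lineage genes were set beside their baselines. MAF had gaps of -1.92 after anti-IL-15, -1.96 before and -1.77 after IgG1, with a change of 0.04 (95% interval -0.35 to 0.43). CD8A had gaps of 7.30, 6.92 and 7.67 in that order, and TOX2 of -1.84, -2.01 and -1.96. EOMES had a gap of 1.84 after anti-IL-15, 2.45 before and 2.64 after IgG1, with a change of -0.61 (95% interval -1.35 to 0.13). SOCS3 had gaps of -0.66, -1.02 and -1.36 and CISH of -0.54, -0.30 and -0.07 in the same order, and neither change passed.

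**Figure D5:**
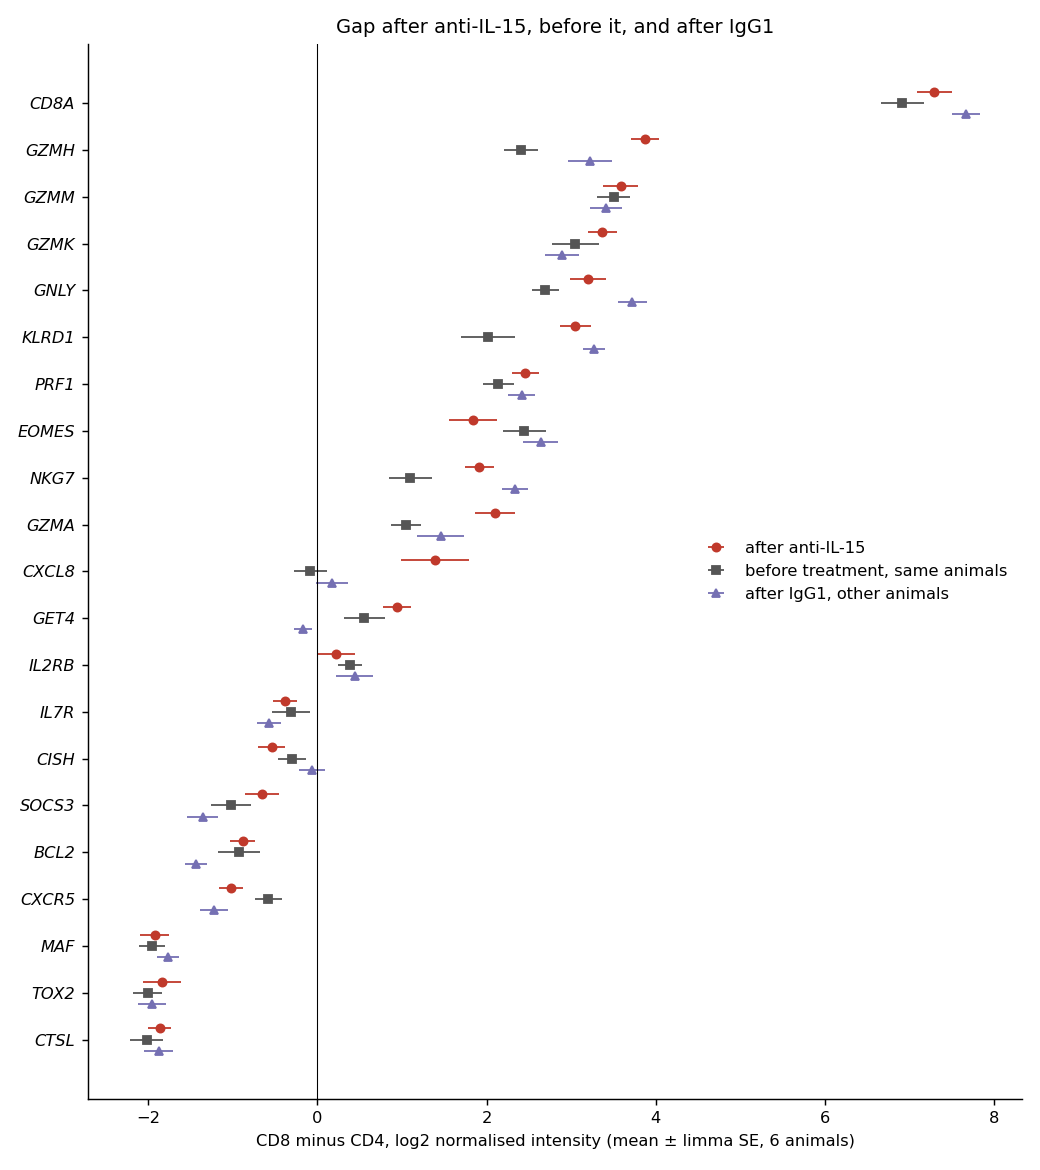
Gap (CD8 minus CD4, log2 normalised intensity, mean ± limma SE of 6 animals) of selected genes after anti-IL-15 (red circles), before treatment in the same animals (grey squares) and after IgG1 in other animals (purple triangles). MAF, TOX2 and CTSL lie within 0.3 of each other across the sets, while GZMH stands at 3.87, 2.41 and 3.22. GZMH was among the genes picked for a low p of the change, which did not pass (limma, adjusted p = 0.647). After anti-IL-15, KLRD1 was detected on 0 of 6 CD4 arrays and CXCR5 on 0 of 6 CD8 arrays, so their gaps there are differences from background. PRF1 and NKG7 were detected on 1 of 6 CD4 arrays and GZMH on 3 of 6.

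The balance of sorted cells was compared as well. CD4 sorts held 4.05 to 14.5 times as many cells as CD8 sorts of the same animals after anti-IL-15. The ratio of CD8 to CD4 sorted cells was on average 1.49-fold of that before treatment (mean log2 change 0.58 ± 0.76, SD, n = 6), higher in 4 of 6 animals, and an exact two-sided sign-flip test gave p = 0.125, where 0.03125 is the smallest possible. In IgG1 animals the mean log2 change was -0.02 ± 0.39 (SD, n = 6, exact p = 0.875), and the difference between the antibodies had an exact permutation p of 0.102. Numbers of sorted cells depend on the blood drawn and the sort, and are not cell counts in blood.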

How the data were processed

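The deposited table of the authors holds, per the file headers, an average bead intensity for every probe and array, beside a detection p-value against that array's background. A second table of the authors holds deposited log2 values, of which 99.9% lay within 0.001 of the log2 quantile-normalised intensity recomputed here, so it carries no background correction. The submitters' processing notes name limma, with no version or role. Per the labels, RNA with a quality score (RQI) of at least 7.0 was amplified.

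The function neqc (limma 3.58.1, R 4.3.3, offset 16) corrected the background, quantile normalised all 49 arrays together and took log2, and the 49 readings of 0 were treated as missing. Figures were drawn with matplotlib. Probes entered with a detection p below 0.05 in 6 or more of the 12 samples sharing antibody and time point. Of several probes of a gene the brightest was tested, which left 8390 genes; 1488 genes had several. Of 47230 probes, 30113 carried 1 symbol in the platform annotation, 8 several and 17109 none. Of probes without a symbol 4085 passed the filter, 227 of them higher and 237 lower in CD8, and these are not described. No coordinates are given, because no genome build is named in the sources used here. The number of arrays limits the precision.

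The gap after anti-IL-15 was fitted on its 12 samples (lmFit, eBayes), with a fixed block for the animal. Animals come from the labels, so the samples are paired; deviations of CD8 and CD4 samples of an animal correlated at 0.20 to 0.48 across genes, and 6 of 6 matched best with their own animal. The change over time was fitted on 24 within-animal differences with the animal as a block, and the difference between antibodies on the 12 differences after treatment. A bound ("at least") sets the mean of the lineage with detection against the lowest detected signal of the other arrays, or the probe's own signal where higher. The fits were tested on simulated data; gaps of 0.5, 1 and 2 were recovered for 11.9%, 83.6% and 97% of changed genes among 8390.

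The sample set, the 28 gene lists (22 of pathways, 6 of other cell types) and the tests were chosen with earlier results of these data known. Named were the 15 genes each way with the largest change among those called with the same direction in 6 of 6 animals, the 5 lowest p-values of each test of a difference, the tested members of the 2 identity lists plus those of the IL-15 list, and from every other list the 6 lowest p-values or fewer. GZMA, NKG7, CD3D and CCR7 were added after their values were seen. FAM76B was added because its difference from IgG1 was called without anti-IL-15 animal 2. Markers of other cells are named for their detection alone. Alternatives were other background corrections and normalisations, the deposited log2 values, other filters, every probe, variance models, array weights, no block or a random block, all 48 samples in 1 fit, thresholds of 0.01 and 0.1, the sorted cell ratio as a covariate and animals left out; leaving out animals 3 and 4, 5 and 6, or 3, 5 and 6 was chosen after seeing the data.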

Additional observations from a re-analysis of the deposited data

Results flagged for a closer look

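For 11 of the 120 named genes the gap of 1 of the 6 animals lay far from those of the other 5 by Dixon's test (95% level). Chance alone would do this for about 1 in 20 genes picked without regard to their values. Many of the named genes were picked by their values in these same data. Dixon's test was run on the named genes only, so the share flagged among all tested genes is not known. The count of 11 can therefore not be compared with that chance rate. Animal 3, whose CD4 array stood apart, was the outlying one for CCR9 (0.21, against -2.45 to -1.65 in the others), IFI27 (-0.24, against 1.35 to 2.16) and TOX2 (-0.48, against -2.39 to -1.83). Animal 4, whose CD8 array stood apart as well, was outlying for CD79A (1.12, against 0.32 to 0.53) and GAPDH (0.16, against -1.09 to -0.79). Animal 2 had the largest CD8-low gap for BCL2 (-1.48, against -0.90 to -0.66) and ARID5B (-2.18, against -1.63 to -1.31). It was also outlying for FAM76B (-2.31, against -0.29 to 0.25). FAM76B was named because its difference from IgG1 was called without animal 2, so its flag in that animal adds no support. TOP2A (-1.07, against -0.58 to -0.32) and NKG7 (2.77, against 1.43 to 1.92) were outlying in animal 1, and BACH2, a regulator of memory, in animal 6 (0.75, against -1.15 to -0.49). BACH2 was not called (gap -0.55, adjusted p = 0.104).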

How the results depend on the processing

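The number of genes with a gap after anti-IL-15 was 1617. It was 1051 with no replicate block, 464 at a threshold of 0.01 and 765 to 1627 when 1 animal was left out. It was 1057 without animals 3 and 4, 918 without animals 5 and 6 and 1029 without animals 3, 5 and 6, and lay between 1085 and 2406 under the other alternatives. Before treatment it was 453 to 2002 with 1 animal left out, against 1172, the highest being without animal 3, and after IgG1 2450 to 2888, against 3102. With no replicate block these counts were 928 and 2219. The change after anti-IL-15 had 0 calls under every alternative run, the fit with no replicate block included. The difference from IgG1 had 1 call with array weights, GET4 (adjusted p = 0.0376), and 0 to 2 with 1 animal left out; the 2 were GET4 and FAM76B, both without anti-IL-15 animal 2 (adjusted p = 0.0135). GET4 had an adjusted p of 0.0135 to 0.643 over the alternatives. The mean log2 change of the sorted cell ratio was 0.30 to 0.70 with 1 animal left out. Of 120 named genes 86 were called, and 59 of these passed without each animal in turn. The count for single genes left aside the threshold of 0.01, the fit of every probe and the animal pairs and trios. Of the 86 called genes, 47 passed under every other alternative that tested them, and 86 kept their sign. Those that failed without a single animal were BBC3, CCDC71, CCND3, CCR2, CD200, CD79A, CISH, CTLA4, CXCL8, DUSP5, EIF2AK2, FOSB, FOSL2, FYN, GAPDH, ISG15, ITGB1, LEF1, MX1, OAS1, RNA28SN5, RORA, SOCS3, TOP2A, TYMS, UBXN7 and ZBTB16. LYZ, not called, turned to -0.87 without animals 3, 5 and 6 (adjusted p = 0.0344). The causes were not tested. Signal over background limits dim probes: PRF1, dim in CD4, had a gap of 1.15 without background correction against 2.46 with it, and 11.9% of simulated gaps of 0.5 were recovered.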

Other observations

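Probes of the same gene disagreed for several genes named above. The second CD200 probe had a mean gap of -0.07 and the tested one -0.77. For FOXP1, a quiescence factor, the tested probe had a gap of -0.49 (adjusted p = 0.0562) and the other 3 had mean gaps of 0.23 to 0.45. For BCL2 the tested probe had -0.88 and the others lay between -0.41 and -0.04. Which probe follows the macaque transcript was not tested.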
